A study of Solanum pimpinellifolium with 6 samples.

Results

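The mature sequences of the miR397, miR398 and miR408 families, which are linked in plants by copper, were examined in leaves of the wild tomato LA2093 at normal and elevated temperatures, together with the transcript sites at which their cleavage was sought. Members were all listed miRNAs named for one of the 3 families, taken once per distinct sequence. This gave 16 distinct sequences (17 listed entries) of 629 distinct sequences (759 entries) in all, with 4 in miR397, 6 in miR398 and 6 in miR408. Of the 362 listed rows of degradome sites, 11 belonged to these members, at 9 of 233 distinct sites.

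LA2093 (S. pimpinellifolium) is a heat-tolerant accession, and its seedlings grew at 26/18 °C (day/night) until they were kept at 26/18 °C (NT), moved to 33/33 °C (MET) or moved to 40/40 °C (AET) for 8 h. All seedlings were transferred to pots on day 20 after sowing, and treatment began on day 7 after that transfer. The heated groups also received more water than the NT group to hold soil moisture, so temperature and that irrigation cannot be told apart. Leaves of 5 seedlings made up a replicate, with 3 replicates per time point, but the sources used here do not say which replicates entered a library. Each temperature had 1 small RNA library and 1 degradome library. No difference below therefore has a replicate check within the sequencing data, each test compares libraries and not temperatures, and intervals cover counting error only. The study also measured some miRNAs by qRT-PCR in replicate samples, spi-miR408b-3p_stu among them, and those measurements are not analysed here. For spi-miR408b-3p_stu the paper reports levels significantly above the control at MET and at AET, at the sequenced time point among others. Its figure labels that control as the start of treatment, and levels were relative to a small nuclear RNA. The NT library was instead sampled at 8 h.

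miR397, miR398 and miR408 are short RNAs cut from hairpin precursors, and each guides the cleavage of transcripts that match it. In Arabidopsis the 3 families rise when copper is short, under the transcription factor SPL7, and act on transcripts of copper proteins that the cell can spare. miR397 acts mainly on laccases, the secreted oxidases of lignin formation. miR398 acts on the copper/zinc superoxide dismutases CSD1 and CSD2 and on their copper chaperone CCS. miR408 acts on plantacyanin and other small blue copper proteins and on laccases.

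The sequences are shown to make clear how members of a family differ, with the seed (bases 2 to 8 from the 5′ end) in capitals. The miR397 family held a 5′ arm sequence of 21 nt with a longer form of 24 nt, and a pair of 3′ arm sequences that overlapped by 18 nt and started 3 nt apart.
spi-miR397 (21 nt): aTTGAGTGcagcgttgatgac
spi-miR397 (24 nt): aTTGAGTGcagcgttgatgacaac
spi-miR397-p3: tCAACGCTacactcgatcatg
spi-miR397-3p_stu: tCATCAACgctacactcgatc

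The 2 seeds of the 3′ arm sequences differ only because the cut lies at another base. The hairpin of spi-miR397 was placed on the minus strand of chromosome 7 at 63282726 to 63282841 (genome build not given in the sources used here). Counted from the 5′ end of spi-miR397-p3, the listed sequence differed from its hairpin by A10C, and the 24 nt form of spi-miR397 differed from its hairpin by T23A and A24C. The last bases of that form thus did not match its own listed hairpin.

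The miR398 family is shown because its 3′ arm sequences differ within the seed itself.
spi-miR398a-3p_stu: tATGTTCTcaggtcgcccctg
spi-miR398b_osa: tATGTTCTcaggtcgcccctgt
spi-miR398b-3p_stu (chromosome 12): tGTGTTCTcaggttacccctg
spi-miR398b-3p_stu (chromosome 5): tGTGTTCTcaggtcacccctt
spi-miR398_cca: tATGTGTTctcaggtcgcccc
spi-miR398a-5p_stu: gGGTTGATttgagaacatatg

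The chromosome 12 form of spi-miR398b-3p_stu differed from spi-miR398a-3p_stu by A2G, C14T and G15A, and the chromosome 5 form by A2G, G15A and G21T (positions from the 5′ end of spi-miR398a-3p_stu). Both therefore shared a seed that spi-miR398a-3p_stu lacks. The spi-miR398a hairpin lay on the minus strand of chromosome 11 at 47382919 to 47383009, and the hairpin of spi-miR398b_osa overlapped it by 38 bp. spi-miR398b_osa is spi-miR398a-3p_stu with 1 more base at the 3′ end.

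The miR408 family is shown because a single seed base separates the a and b forms of its 3′ arm.
spi-miR408b-3p_stu: tGCACTGCctcttccctggct
spi-miR408-3p_mtr (24 nt): tGCACTGCctcttccctggctttt
spi-miR408a-3p_stu (22 nt): tGCACAGCctcttccctggctt
spi-miR408a-3p_stu (19 nt): tGCACAGCctcttccctgg
spi-miR408b-5p_stu: aCGGGGACgagccagagcatg
spi-miR408a-5p_stu: aGGGACGAggcagcgcatgaga

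The 22 nt form of spi-miR408a-3p_stu differed from spi-miR408b-3p_stu by T6A. spi-miR408-3p_mtr, which the list also names spi-miR408a_mdm, is spi-miR408b-3p_stu with 3 more bases. The hairpins of spi-miR408a (82792801 to 82792871) and spi-miR408b (82801251 to 82801356) both lay on the minus strand of chromosome 1, 8379 bp apart. Over the 3 families, 16 sequences carried 11 different seeds, and 4 sequences had no listed position.

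The values are raw reads as the authors list them, which were not whole numbers for 119 to 126 of the distinct sequences per library, and normalized reads, obtained by multiplying the raw reads by 1.33 in NT, by 0.833 in MET and by 0.898 in AET. The listed miRNAs held 301702 to 424963 raw reads per library over distinct sequences, and spi-miR166a alone took 52.5% to 62.9% of them. The 16 members together held 1.07% of these reads in NT, 1.01% in MET and 0.84% in AET. With exact binomial 95% intervals of 1.03% to 1.10%, 0.977% to 1.04% and 0.812% to 0.869%, the AET share lay under the other two. A mean of at least 10 normalized reads was reached by 9 members, compared with 233 of all 629 sequences, and the remaining 7 are given as raw reads, with a test added only for those that were called.

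**Figure D1:**
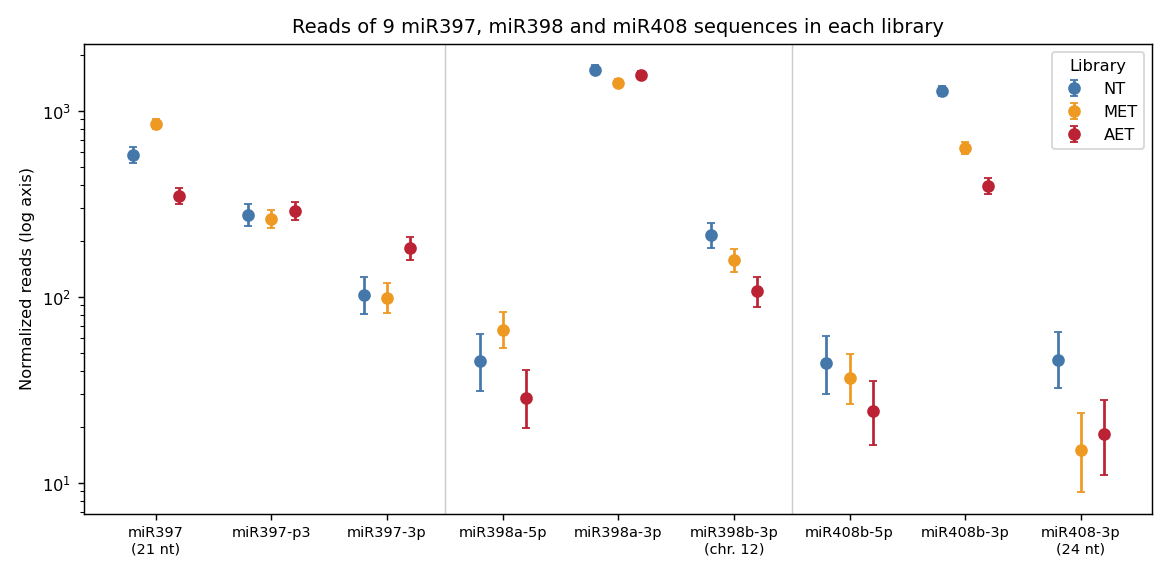
Normalized reads (log axis) of the 9 members with a mean of at least 10 normalized reads, with 1 point per library (NT, MET, AET) and bars for the exact Poisson 95% interval of the raw reads. spi-miR408b-3p stepped down from 1279 in NT to 632 in MET and 394 in AET, while spi-miR398a-3p stayed between 1409 and 1660.

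A member was called if the rounded normalized reads of a pair of libraries gave p of at most 0.05 by the chi-square test and by Fisher's exact test (two-sided), with a log2 ratio of 1 or more in either direction, which is the rule in the study's methods. Between MET and NT, 2 of 16 members were called lower and 0 higher, compared with 5.35% lower and 7.02% higher among 598 sequences tested. Between AET and NT, 3 were called lower and 1 higher, compared with 8.8% and 13.5% among 591. Between AET and MET, 3 were called lower and 0 higher, compared with 9.69% and 12.1% among 588. Of the 9 more abundant members, 2, 3 and 2 were called lower in these comparisons, where 9.01%, 15% and 16.3% of the 233 sequences of that abundance were. None of the 9 was called higher, compared with 10.3%, 11.2% and 9.44%. Their median log2 ratios were −0.24, −0.73 and −0.56, compared with 0.02, 0.09 and −0.05 for all sequences of that abundance with reads in both libraries. Counts this small do not set the members apart from other miRNAs. Both members called lower between MET and NT, spi-miR408b-3p_stu and spi-miR408-3p_mtr, share 21 identical bases, and both were also called between AET and NT. These forms were counted as separate members, although they are not independent.

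**Figure D2:**
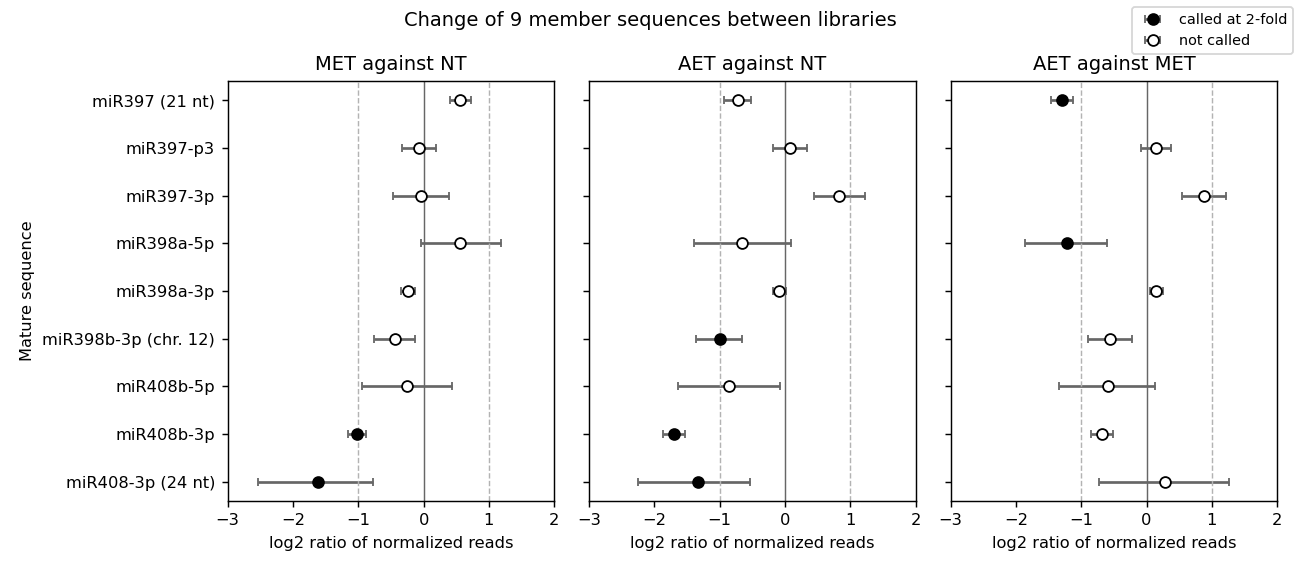
Log2 ratio of normalized reads for the same 9 members in the 3 comparisons, with exact 95% intervals from raw reads, filled points for called members and dashed lines at 2-fold. The miR408 3′ arm sequences lay at or below −1 in both comparisons with NT, and the filled points between AET and MET are spi-miR397 at −1.29 and spi-miR398a-5p at −1.21.

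spi-miR408b-3p_stu, the form that makes up 87.4% to 92.5% of the miR408 reads, had 962 raw reads in NT, 758 in MET and 439 in AET, or 1279, 632 and 394 normalized reads. The 3 libraries were thus ordered NT, MET, AET with no overlap of their counting intervals. The qRT-PCR direction given above was the other way, but its control and scaling differed from those used here, so the comparisons are unlike. Between these single libraries it fell by 1.02 on the log2 scale from NT to MET (ratio −1.02, 95% interval −1.16 to −0.88, Fisher's exact test, Benjamini-Hochberg adjusted p = 2.7e-37 over all sequences). It fell by 1.70 between NT and AET (interval −1.86 to −1.53, adjusted p = 1.9e-87 by the same exact test), or 3.24-fold. Between AET and MET the log2 ratio was −0.68 (interval −0.85 to −0.51), which is past the exact test (adjusted p = 2.2e-11) but under 2-fold. The NT to MET change sat on the threshold. Scaled to all valid small RNA reads it was −0.59, and scaled by the median of ratios −0.997, neither of which was called, whereas the NT to AET change was called under every scaling tried.

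The longer form spi-miR408-3p_mtr had 34.5 raw reads in NT, 18 in MET and 20.3 in AET, with fractions as listed. NT was again the highest library, and the interval between the heated libraries included 0 (log2 ratio AET to MET 0.28, interval −0.73 to 1.26). Its log2 ratio to NT was −1.61 in MET (interval −2.54 to −0.77, adjusted p = 0.0026, Fisher's exact test) and −1.33 in AET (interval −2.24 to −0.54, adjusted p = 0.012, same exact test). Both calls were lost when the tests used reads per 1000000 valid reads, which leaves fewer reads (−1.19 in each, adjusted p = 0.90 and 0.96, exact test), and held under the other scalings. It made up 3.51% of the reads of the pair in NT, 2.32% in MET and 4.36% in AET. No difference between these shares passed the test (smallest adjusted p = 0.21, Fisher's exact test, adjusted over 12 tests of variant shares), so the 21 nt and 24 nt forms moved by amounts that could not be told apart at this depth.

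spi-miR408b-5p_stu, the opposite strand of the same hairpin, had 33, 44 and 27 raw reads in NT, MET and AET, or 43.9, 36.7 and 24.2 normalized reads. Its log2 ratio to NT was −0.26 in MET (interval −0.94 to 0.44) and −0.86 in AET (interval −1.65 to −0.08), and neither was called. The first of these ratios turns to 0.17 when scaled to valid reads.

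spi-miR408a was rare in every library. The 22 nt 3′ arm sequence had 6, 10 and 7 raw reads in NT, MET and AET and the 19 nt sequence 4, 2 and 4. spi-miR408a-5p_stu had 0, 2 and 5. It was the only member called higher in any comparison (AET against NT), with Fisher's exact p = 0.0499 and adjusted p = 0.15. The call used no floor. With the 0 reads of NT set to 3, the value in AET was 1.13-fold higher, which is under 2-fold. The exact interval of the log2 ratio began at −0.69 and included 0, so a rise is not shown.

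miR398, whose best known targets are superoxide dismutases, was led by spi-miR398a-3p_stu, with 85.2% to 91.6% of the family's reads. It had 1249, 1691 and 1742 raw reads in NT, MET and AET, or 1660, 1409 and 1564 normalized reads. Its highest and lowest libraries were 1.18-fold apart, and the interval between NT and AET included 0 (log2 ratio −0.09, interval −0.19 to 0.02). The log2 ratio of MET to NT was −0.24 (interval −0.34 to −0.13) and that of AET to MET 0.15 (interval 0.05 to 0.25), and both change sign when the libraries are scaled to valid reads (0.19 and −0.13).

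spi-miR398b-3p_stu from chromosome 12 had 161, 189 and 119 raw reads in NT, MET and AET, or 214, 157 and 107 normalized reads. NT was the highest and AET the lowest library. The log2 ratio was −0.44 for MET to NT (interval −0.75 to −0.13), −0.56 for AET to MET (interval −0.90 to −0.22) and −1.002 for AET to NT (interval −1.36 to −0.65, adjusted p = 5.7e-06, Fisher's exact test). Only the last was called, and by the smallest margin, since the call was lost under scaling to valid reads (−0.86) and by the median of ratios (−0.96). The chromosome 5 form, with the same seed, had 5, 17 and 4 raw reads, and its fall between MET and AET (log2 ratio −1.98, interval −4.01 to −0.36) was called but had an adjusted p of 0.10 (Fisher's exact test).

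spi-miR398a-5p_stu, the strand opposite the leading form, had 34, 80 and 32 raw reads in NT, MET and AET, or 45.2, 66.7 and 28.7 normalized reads. MET stood highest and AET lowest. It fell by 1.21 between MET and AET (ratio −1.21, interval −1.85 to −0.61, adjusted p = 0.0011, Fisher's exact test). The ratios to NT were 0.56 in MET (interval −0.04 to 1.18) and −0.65 in AET (interval −1.40 to 0.09), and neither was called. For MET to NT the tests, which compare shares of the normalized totals, were passed before adjustment (p = 0.014, adjusted p = 0.079, Fisher's exact test). The ratio itself had an interval that included 0 and was under 2-fold, also when scaled to valid reads (0.98). The remaining miR398 members were at the edge of detection, with 4 to 8 raw reads per library for spi-miR398b_osa and 1 read in NT and 0 in the others for spi-miR398_cca.

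miR397, the laccase regulator, was led by the 21 nt spi-miR397, with 435 raw reads in NT, 1024 in MET and 389 in AET, or 578, 853 and 349 normalized reads. The order was MET, NT, AET with no overlap of counting intervals, so the 2 heated libraries lay on opposite sides of the NT library. It fell by 1.29 between MET and AET (ratio −1.29, interval −1.46 to −1.12, adjusted p = 2.1e-45, Fisher's exact test). Against NT the log2 ratio was 0.56 in MET (interval 0.40 to 0.73, adjusted p = 6.0e-18, exact test) and −0.73 in AET (interval −0.93 to −0.53, adjusted p = 5.4e-08, exact test), both past the tests and under 2-fold. Those directions were the same under every scaling tried. The 24 nt form had 4, 2 and 0 raw reads.

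The 3′ arm sequences of miR397 did not follow the 5′ arm. spi-miR397-p3 had 207, 314 and 323 raw reads in NT, MET and AET, or 275, 262 and 290 normalized reads, and the interval of each pair of libraries included 0. spi-miR397-3p_stu, the form that starts 3 nt earlier, had 77, 119 and 203 raw reads, or 102, 99.2 and 182 normalized reads. It was highest in AET, with a log2 ratio of 0.83 to NT (interval 0.45 to 1.23, adjusted p = 1.6e-07, Fisher's exact test) and 0.88 to MET (interval 0.54 to 1.22, adjusted p = 3.7e-06, exact test), both under 2-fold.

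The form that starts earlier made up 27.1% of the 3′ arm reads of miR397 in NT (exact binomial 95% interval 22.03% to 32.7%), 27.5% in MET (23.3% to 31.9%) and 38.6% in AET (34.4% to 42.9%). The AET share was larger than that in NT (adjusted p = 0.0068, Fisher's exact test, adjusted over 12 tests of variant shares) and in MET (adjusted p = 0.0042, exact test), and the intervals of NT and MET overlapped almost fully. Because the shares are taken within a library, no scaling bears on them.

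The same holds for the ratio of the arms of a hairpin. spi-miR397 gave 2.10 reads of the 5′ arm per read of spi-miR397-p3 in NT, 3.26 in MET and 1.20 in AET. The 5′ arm thus held 67.8% (64.0% to 71.4%), 76.5% (74.2% to 78.8%) and 54.6% (50.9% to 58.3%) of the reads of both arms. Between AET and MET the ratio of the arms fell by 1.44 on the log2 scale (ratio −1.44, interval −1.72 to −1.15, adjusted p = 9.6e-22, Fisher's exact test over all hairpins with both arms listed). It was called lower there at 2-fold, as 11.2% of 116 hairpins were, with 11.2% called higher. None of the member hairpins was called between MET and NT (0.82% of all hairpins lower, 2.46% higher) or between AET and NT (4.46% lower, 7.14% higher). Against NT the miR397 value was 0.63 in MET (adjusted p = 0.0017, exact test) and −0.80 in AET (adjusted p = 2.0e-05, exact test), both under 2-fold. With the 24 nt form and spi-miR397-3p_stu counted with their arms, the AET to NT value was −1.06 and passed 2-fold as well.

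The spi-miR398a hairpin gave 2.65% of its reads from the 5′ arm in NT (1.84% to 3.68%), 4.52% in MET (3.60% to 5.59%) and 1.80% in AET (1.24% to 2.54%). MET was the highest library, as it was for miR397. The ratio of the arms fell by 1.36 between MET and AET (ratio −1.36, interval −2.01 to −0.75, adjusted p = 3.1e-05, Fisher's exact test), and was 0.80 for MET to NT (adjusted p = 0.089, exact test) and −0.57 for AET to NT (adjusted p = 0.34, exact test). In the spi-miR408b hairpin the 5′ arm gave 3.32% of the reads in NT, 5.49% in MET and 5.79% in AET, with no called change (adjusted p = 0.20 for MET to NT and 0.14 for AET to NT, exact test). Among the 37 hairpins with at least 10 reads of each arm in MET and AET, the log2 change of the arm ratio ranged from −1.71 to 2.06 with a median of 0.08. miR397 had 1 hairpin below it and miR398a had 4.

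**Figure D3:**
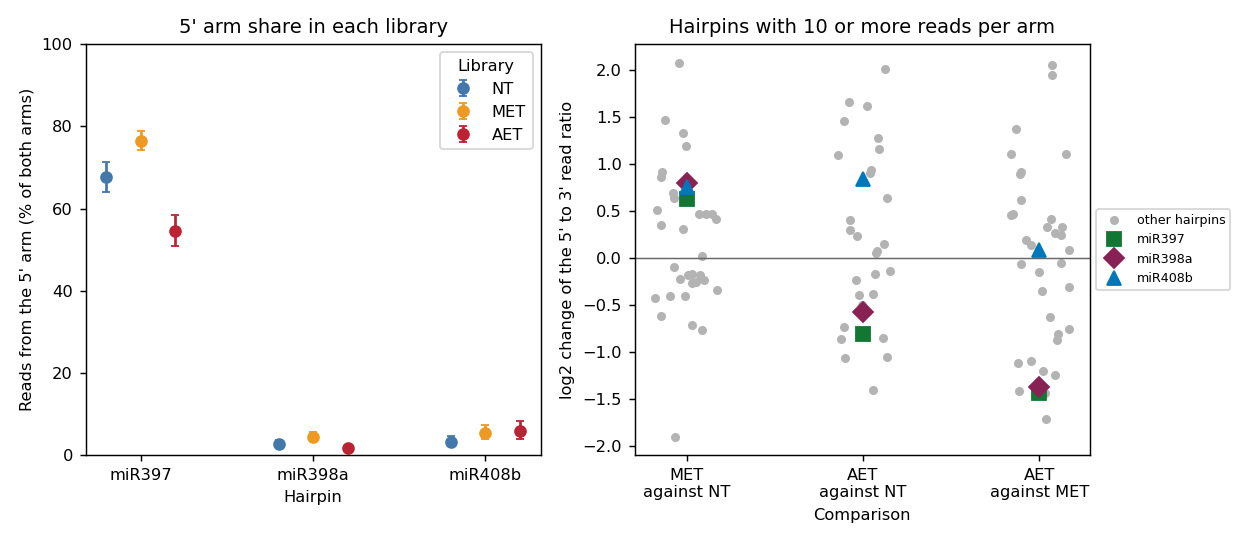
Left, reads of the 5′ arm as a percentage of both arms in each library for 3 hairpins, with exact binomial 95% intervals. Right, log2 change of the 5′ to 3′ read ratio for every hairpin with at least 10 reads of each arm in both libraries (grey, other hairpins). Between AET and MET the miR397 and miR398a hairpins lay near the low end at −1.44 and −1.36, and miR408b lay at 0.08.

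Summed over members, miR408 had 1382 normalized reads in NT, 695 in MET and 451 in AET. Its log2 ratio to NT was −0.99 in MET (interval −1.13 to −0.86) and −1.62 in AET (interval −1.77 to −1.46), so the family as a whole followed spi-miR408b-3p_stu. miR397 had 961, 1216 and 822 normalized reads, with log2 ratios to NT of 0.34 in MET (interval 0.21 to 0.47) and −0.23 in AET (interval −0.37 to −0.08). miR398 had 1933, 1654 and 1707 normalized reads, with log2 ratios of −0.22 (interval −0.32 to −0.13) and −0.18 (interval −0.28 to −0.08). Scaled to valid reads, the miR398 ratios became 0.20 and −0.04, so no direction is given for that family.

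The leading sequences of miR408 and miR398 were also compared within each library, where scaling drops out. There were 0.77 reads of spi-miR408b-3p_stu per read of spi-miR398a-3p_stu in NT, 0.448 in MET and 0.252 in AET. The log2 change from NT was −0.78 in MET (interval −0.96 to −0.61, adjusted p = 1.2e-18, Fisher's exact test over 6 such comparisons) and −1.61 in AET (interval −1.81 to −1.42, adjusted p = 3.2e-62, exact test). From MET to AET it was −0.83 (interval −1.03 to −0.63, adjusted p = 4.2e-17, exact test). Summed over all 3′ arm sequences of each family, the ratio was 0.709 in NT, 0.414 in MET and 0.251 in AET. miR408 and miR398 thus did not hold a fixed proportion to each other across these libraries.

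In the degradome, which sequences the 5′ ends of cut transcripts, none of the 9 member sites had more than 4 reads in a library. One read stood for 84.9, 87.2 and 92.1 tags per 1000000000 in NT, MET and AET. Of the member sites 7 were read in NT, 2 in MET and 2 in AET, with 11, 2 and 4 reads in total, compared with 130, 113 and 118 of all 233 sites. No member site was placed in category 0 or 1, in which the site holds the highest tag count of its transcript, compared with 16 of all 233 sites in at least one library. No member site passed a test between libraries (smallest p = 0.11 unadjusted, Fisher's exact test), where 1.12% (MET to NT), 1.6% (AET to NT) and 1.68% (AET to MET) of the sites tested passed at an unadjusted p of 0.05 and 2-fold. At this depth a change at these sites was not detectable.

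**Figure D4:**
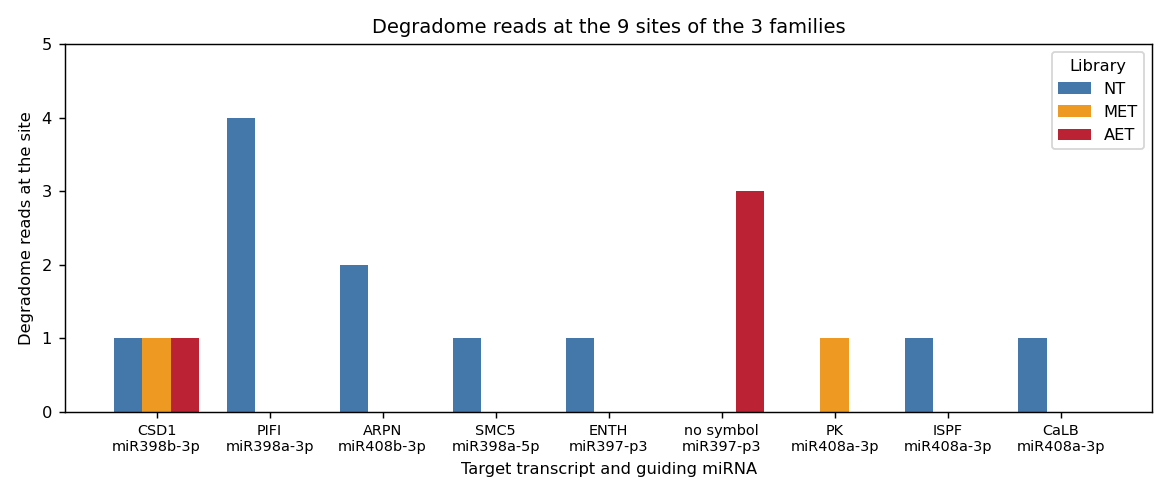
Degradome reads at each of the 9 member sites in the NT, MET and AET libraries (1 bar per library), labelled with the target transcript and the guiding miRNA. CSD1 has 1 read in each library, and the tallest bar is PIFI with 4 reads in NT.

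The CSD1 site was the only member site read in all 3 libraries. CSD1, the cytosolic copper/zinc superoxide dismutase (transcript Solyc01g067740.2.1), was paired over bases 64 to 84 with both spi-miR398b-3p_stu sequences at an alignment score of 4, and the cut lay at base 75, opposite base 10 of the miRNA. It had 1 read in NT, 1 in MET and 1 in AET, all in category 4, the class of single reads. A count of 1 has an exact Poisson 95% interval of 0.0253 to 5.57 reads, so neither a rise nor a fall of CSD1 cleavage could be seen. The authors' p-value for the site in NT was 0.219 with the chromosome 12 sequence and 0.390 with the chromosome 5 sequence. The abundant spi-miR398a-3p_stu, which differs from them in the seed, had no listed row at this site.

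spi-miR408b-3p_stu had a single site, at base 88 of the plantacyanin transcript ARPN (Solyc01g104400.2.1), the known target of its family. It had 2 reads in NT and 0 in MET and AET, which allow up to 3 reads each. The difference was within counting error (p = 0.50 for each, unadjusted, Fisher's exact test). The same sequence was highest in NT in the small RNA libraries, but with 2 reads no relation between the 2 measures can be read. The authors' p-value for the ARPN site in NT was 0.397. Over the member sites read in NT, the authors' p-values ran from 0.219 to 0.862.

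None of the other sites was annotated to a copper protein. spi-miR398a-3p_stu and spi-miR398b_osa shared a site at base 116 of PIFI (Solyc12g042770.1.1), a chloroplast protein named for post-illumination chlorophyll fluorescence, with 4 reads in NT and 0 in both heated libraries (p = 0.13 for each, unadjusted, Fisher's exact test). spi-miR397-p3 had 3 reads in AET only at base 155 of Solyc01g087620.2.1, which has no annotation in the list (p = 0.11 against NT, unadjusted, exact test). The remaining 5 sites had 1 read each. They were ENTH, a clathrin assembly-related transcript, with spi-miR397-p3, and SMC5, a chromosome maintenance gene, with spi-miR398a-5p_stu. The 19 nt spi-miR408a-3p_stu had a protein kinase, ISPF, an enzyme of plastid isoprenoid synthesis, and a CaLB domain protein.

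Of 16 groups of genes linked to copper use or supply sought in the site lists, 2 had a listed site, CSD1 and plantacyanin. The groups were laccases, CSD1, CSD2, FSD, CCS, plantacyanin, uclacyanins, blue copper binding proteins, COX5B, SPL7, COPT, HMA5, PAA, polyphenol oxidases, plastocyanin and ascorbate oxidase. No laccase site was listed for either spi-miR397 or spi-miR408. The other copper miRNAs of plants, miR857 and miR1444, had no listed entry. CSD3, another superoxide dismutase, had a site paired with spi-miR5291a__mtr and not with miR398, with 1, 3 and 1 reads in NT, MET and AET. It lies outside the list and was picked after its values were seen.

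The miRNAs whose pattern was most like each leading member were sought among the 77 other sequences with a mean of at least 100 normalized reads, by the Euclidean distance of the log2 ratios of MET and AET to NT. Nearest to spi-miR408b-3p_stu (−1.02 and −1.70) was spi-miR169e-3p at −1.05 and −1.66 (distance 0.05), followed by spi-miR894_ppt (0.34) and spi-miR8175_ath (0.40). Nearest to the 21 nt spi-miR397 (0.56 and −0.73) was spi-miR159a-3p_zma at 0.61 and −0.81 (distance 0.09), followed by spi-miR6027-5p (0.25) and spi-miR390a-p5_hex (0.37). Nearest to spi-miR398a-3p_stu were PC-8-3p (distance 0.18), spi-miR1917-p3 (0.18) and spi-miR403-5p (0.23). Each distance rests on 3 libraries, so it describes these libraries only.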

How the data were processed

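Small RNA and degradome libraries of LA2093 leaves (1 of each per temperature) were used as deposited. The authors kept reads of 19 to 24 nt, matched them to plant miRNAs with up to 1 mismatch, and deposited raw reads as estimated counts and normalized reads. For the degradome (CleaveLand 3.0 on iTAG 2.3 transcripts), the authors deposited the alignment score, category, p-value and tags per 1000000000 (a signal scaled to library size) of each site. Tables of the authors' own fold changes and p-values per comparison were not used.

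Here, totals were normalized reads over all listed entries (427428 in NT, 391158 in MET and 382989 in AET). The tests of single sequences compared shares of these totals, which the printed log2 ratios and intervals do not use. A p-value and an interval can therefore disagree. Intervals came from rounded raw reads, and these tags were turned back into reads. For bounds on a fold, libraries at 0 were set to a floor of 3 reads, or 3.99, 2.50 and 2.69 normalized reads in NT, MET and AET. The calls of single sequences used no floor, so 0 reads in either library counted as past 2-fold. Variants were sequences starting within 3 nt with 16 or more identical bases. Full values are given for members with a mean of at least 10 normalized reads, and likeness used the 3 nearest sequences. The members and lists were chosen with earlier results of these data known. The statistics were tested on simulated data, and alternative scalings, filters and adjustments were tried. The software was Python 3.11.15 with scipy 1.17.1, numpy 2.4.6, matplotlib 3.10.9 and pandas 2.3.3.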

Additional observations from a re-analysis of the deposited data

How the results depend on the processing

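No paired analysis was possible because each temperature had 1 library, and no replicate could be left out. Scaling to valid reads moved every log2 ratio by 0.42 (MET to NT), 0.14 (AET to NT) and −0.29 (AET to MET), and scaling without spi-miR166a by −0.18, −0.06 and 0.12. Over all sequences, calls between MET and NT were 32 lower and 42 higher, and 22 and 67 on valid reads.

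Members called lower between MET and NT numbered 2, and 1 on valid reads, 1 by the median of ratios, 0 on reads per 1000000 valid reads and 4 with no fold threshold. The last scaling was added after seeing the data, and leaves fewer reads in each test. It gave 1 in place of 3 called lower between AET and NT, and 1 in place of 3 between AET and MET (the calls of spi-miR408-3p_mtr and spi-miR398a-5p_stu were among those lost), where no fold threshold gave 5. Over all sequences it gave 3 lower and 26 higher for MET to NT, and 30 lower and 14 higher for AET to MET, against 57 and 71. With no fold threshold, 2 members were called higher in each comparison, in place of 0, 1 and 0. The 1 called higher between AET and NT became 0 on valid reads, on reads per 1000000, on raw reads, after Benjamini-Hochberg adjustment and with a mean of at least 10 normalized reads.

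On valid reads the sign turned for MET to NT in spi-miR397-p3 (0.35), spi-miR397-3p_stu (0.38), spi-miR398a-3p_stu (0.19) and spi-miR408b-5p_stu (0.17), for AET to NT in spi-miR398a-3p_stu (0.053), and for AET to MET in spi-miR397-p3 (−0.14), spi-miR398a-3p_stu (−0.13) and spi-miR408-3p_mtr (−0.0016). None of these was called. Of the family sums, miR398 turned to 0.20 (MET to NT) and −0.24 (AET to MET), miR397 and miR398 for AET to NT became −0.088 and −0.041 with intervals over 0, and without spi-miR166a the miR398 ratio of AET to MET was 0.16. With all variants of each arm, the miR397 arm ratio of AET to NT passed 2-fold (−1.06). Of 100 alternatives to the main results, 79 were counted as the same. For counts this meant a value within 1.5 times. It covered 2 to 4 in place of 3 called lower between AET and NT, and 2 in place of 3 between AET and MET. Ratios kept their direction, but not always their side of 2-fold. The miR408 sum of MET to NT passed 2-fold without spi-miR166a (−1.17) and with a mean of at least 10 normalized reads (−1.002). The miR408a arm ratio of AET to MET went from 0.32 to 1.45 with all variants, and neither was called. The cause of the changes was not tested. Reads mapped to cDNA left the CSD1 ratios near 0.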
